A study of Mus musculus with 103 samples.

Results

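RNA of whole mouse spleen was set against RNA of T and B lymphocytes sorted from mouse spleen, to see which transcripts of the organ the sorted cells lack and which they hold at higher signal. The comparison used 7 of the 103 arrays of the series: the 1 array of 500 pg of spleen RNA and the 6 arrays of 500 sorted cells, all amplified by the protocol that the labels call BIIB, the Biogen Idec protocol, which yields biotinylated cDNA. The series as a whole compared amplification protocols for very small amounts of RNA on Affymetrix mouse arrays. The spleen RNA came from a commercial panel of purified mouse tissue RNAs (Ambion), and the labels give no strain, age, sex or treatment for it. The lymphocytes were flow sorted from the splenocyte suspension of a single normal mouse, again with no strain, age or sex given. The 6 arrays held 500 T cells and no B cells, 400 T and 100 B cells, 300 and 200, 200 and 300, 100 and 400, and no T cells with 500 B cells. Both groups were untreated and unmodified as far as the labels say. Tissue RNA against cells, animal and amount of RNA all differ between the groups and cannot be told apart. In such bulk RNA, fewer cells of a type and less RNA per cell also cannot be told apart. The lymphocyte arrays are mixtures of cells of 1 mouse, so any p-value here measures only the spread between these arrays.

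The spleen has white pulp, where T and B lymphocytes lie in follicles and sheaths, and red pulp, a blood filter in which macrophages remove old red cells and recycle their iron. In the mouse the red pulp also makes red cells, granulocytes and platelets, so erythroblasts, myeloid precursors and megakaryocytes are normal residents. A frame of fibroblastic reticular cells, smooth muscle and sinus endothelium holds both parts together. Sorting for T and B cells is meant to leave all of these out, and the purity of the sorted cells was not tested here.

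The labels of the lymphocyte arrays were checked first against genes of the T cell receptor complex and the B cell receptor complex. Cd3d, a CD3 chain of the T cell receptor, had a MAS5 signal (the array's linear intensity summary, scaled to a common trimmed mean) of 18138, 16887, 9046, 5279, 4062 and 1149 from 500 T cells to 500 B cells. Cd79b, a signalling chain of the B cell receptor, had 161, 34306, 75750, 73436, 122915 and 183693 over the same arrays. Cd3d was lower with each step towards B cells and Cd79b was lowest with no B cells and highest with B cells alone, so both went with the labels. The spleen array had 3165 for Cd3d and 41448 for Cd79b, each inside the range of the mixtures. Median signal over all probe sets was 515 on the spleen array and 889 to 1170 on the 6 lymphocyte arrays, although all arrays have the same trimmed mean. The median was 431 to 623 on the 7 BIIB arrays of other tissues and 776 to 1099 on the 12 arrays of 100 lymphocytes. Quantile normalization removes this gap, and the counts it gave are in the next paragraph. The cause of the gap was not tested.

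Of 15132 probe sets whose mean over both groups was at least 500, 946 (6.25%) were at least 2-fold above all 6 lymphocyte arrays in spleen and 1517 (10.0%) at least 2-fold below all 6. This count of values outside the range of the mixtures carries no test, and with 1 array against 6 a permutation cannot give a p below 0.143. A limma fit, which takes the lone spleen array to vary like the lymphocyte arrays, called 76 probe sets higher (0.502%) and 45 lower (0.297%) in spleen at a Benjamini-Hochberg adjusted p under 0.05. The limma count rests on all 6 lymphocyte arrays: leaving out any 1 gave 16 to 34 higher and 5 to 8 lower. Quantile normalization moved the median difference of all tested probe sets from -0.26 to 0.15 on the log2 scale, the counts outside the range to 1054 above and 836 below, and the limma counts to 37 and 6. The share of values outside the range that lay above was 38.4% after scaling and 55.8% after quantile normalization. Of the 946 probe sets above, 869 (91.9%) stayed at least 2-fold above all 6 after quantile normalization. Of the 1517 below, 806 (53.1%) stayed at least 2-fold below. Over the 12393 genes with a probe set of 1 symbol, without a filter, 647 (5.22%) were above and 1030 (8.31%) below all 6 arrays, and the median difference was -0.53. Those shares are the background for each gene list below.

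The lists that stood farthest above that background were those of dividing cells, red cell precursors, neutrophils and macrophages, together with a list of pancreatic enzymes. Of the erythroid list, 29 of 37 genes (78.4%) were above all 6 lymphocyte arrays. Of the neutrophil list, 15 of 23 (65.2%) were above, and of the macrophage list 24 of 39 (61.5%). None of these 3 lists had a gene at least 2-fold below all 6 once the pseudocount described under processing was added. Siglec1 of the macrophage list was below all 6, by under 2-fold on that scale. The T cell list had 0 of 17 genes above and 2 below, and the B cell list had 1 of 20 above and 1 below. The lists were chosen with earlier results of these data known, so their counts are descriptions.

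**Figure D1:**
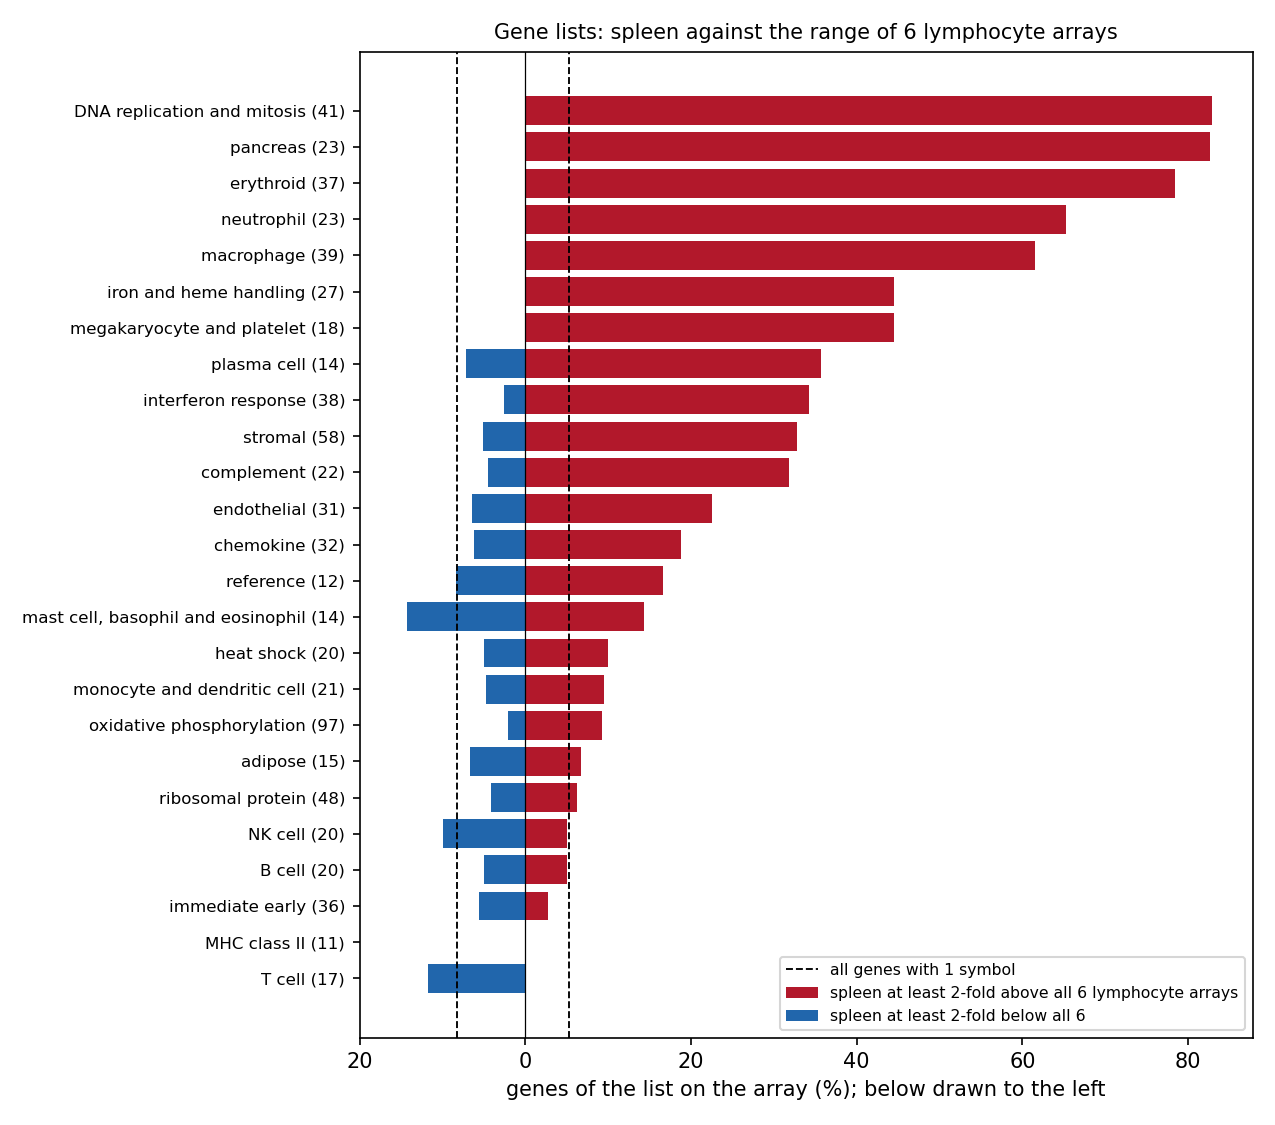
Share of each gene list (number of its genes on the array in brackets) for which spleen was at least 2-fold above all 6 lymphocyte arrays (bars to the right, percent) or at least 2-fold below all 6 (bars to the left, percent). Dashed lines mark the shares over all 12393 genes, 5.22% above and 8.31% below. The DNA replication, pancreas, erythroid, neutrophil and macrophage lists have the longest bars to the right, from 61.5% to 82.9%. These lists have no bars to the left.

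The erythroid genes had a median difference of 3.23 on the log2 scale, against -0.53 for all genes. Their summed signal was 890998 on the spleen array and 38717 to 58854 on the lymphocyte arrays. Klf1, the transcription factor that switches on the late red cell programme, had a signal of 35527 in spleen against a lowest, median and highest of 53.9, 133 and 207 in the lymphocytes. Its spleen value was 107-fold above the nearest lymphocyte array after the pseudocount was added to both signals, and limma gave a log2 difference of 7.18 ± 0.63 (SE, adjusted p = 0.00734). Car1, a red cell carbonic anhydrase, had 61737 in spleen against 114, 766 and 1117 (6.39 ± 0.91, limma adjusted p = 0.0336). Rhd, a blood group membrane protein, had 31860 against 142, 410 and 939 (6.0 ± 0.91, limma adjusted p = 0.0393). Alas2, the enzyme that starts heme synthesis in red cells, had 45068 against 236, 558 and 1855 (5.82 ± 0.94, limma adjusted p = 0.0446). No lymphocyte array came near the spleen value for any of the 4, and limma called no other gene of the list.

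Other steps of red cell formation lay outside the lymphocyte range without passing the limma call. Fech, which puts iron into heme, had 80660 in spleen and at most 3712 in lymphocytes (limma adjusted p = 0.0692). Slc4a1, the anion exchanger of the red cell membrane, had 34360 against at most 2341 (limma adjusted p = 0.0985). Epor, the erythropoietin receptor, had 3983 against at most 862, and Gata1, the regulator of erythroid and megakaryocyte genes, 3465 against at most 1175. The receptor and the regulator were thus also on the high side, at lower signal. Among 3 probe sets listed under several alpha globin genes, the spleen signal was 106877, 430014 and 815793 against at most 282, 209 and 543 in lymphocytes. The probe set listed under several beta globin genes had 738511 against 527 to 2692. These probe sets of several globin genes were among the brightest compared here and were called by limma. Their log2 differences were 8.79 for beta and 8.79 to 11.4 for alpha. Globins of the erythroid list, taken from probe sets of a single gene, had smaller differences and were not called. Hbb-b2 had a log2 difference of 5.03 and Hba-a2 of 1.43, both above every lymphocyte array. Hba-a1 failed the filter and had -0.59.

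Since the erythroid genes lay high together, the 250 bases before the RefSeq start of the genes (GRCm38.p6) were searched on both strands for AGATAA, a form of the GATA factor motif. Promoters of Klf1 and Rhd are printed because both were called by limma and differ in AGATAA, which is in capitals.
Klf1, chr8:84901732-84901981, plus strand: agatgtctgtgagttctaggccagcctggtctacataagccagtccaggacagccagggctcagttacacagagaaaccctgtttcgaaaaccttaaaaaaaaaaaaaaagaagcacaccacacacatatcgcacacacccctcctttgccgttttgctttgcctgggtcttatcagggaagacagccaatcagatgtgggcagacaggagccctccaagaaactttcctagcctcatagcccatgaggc
Rhd, chr4:134864286-134864535, plus strand: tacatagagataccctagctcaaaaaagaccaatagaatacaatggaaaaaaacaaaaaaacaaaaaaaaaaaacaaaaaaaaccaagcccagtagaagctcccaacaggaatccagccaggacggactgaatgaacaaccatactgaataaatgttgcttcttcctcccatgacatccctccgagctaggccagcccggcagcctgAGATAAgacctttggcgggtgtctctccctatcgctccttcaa
Rhd has 1 match, 43 bases before its start, and Klf1 no match to AGATAA in this window. Other forms of the GATA motif were not searched, so Klf1 may hold one of them. Of the 28 erythroid genes with a promoter in the table, 8 hold the motif (28.6%), and all 8 are among the 21 that were above all 6 lymphocyte arrays. The share over all 27025 promoters was 10.3%. A match is a string of letters and not evidence of binding.

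Neutrophil genes had the higher median difference, 5.03, and limma called 10 of the 23. Mpo, the myeloperoxidase of primary granules, had 107157 in spleen against a lowest, median and highest of 32.8, 89.8 and 808 in lymphocytes (8.38 ± 1.15, limma adjusted p = 0.0308). Ltf, the lactoferrin of secondary granules, had 121876 against 69.5, 204 and 1345 (7.99 ± 1.26, limma adjusted p = 0.0435). S100a9, a calcium-binding protein that fills the neutrophil cytosol, had 156739 against 150, 213 and 1804 (8.47 ± 1.09, limma adjusted p = 0.027). For these 3 genes the spleen signal was far above every lymphocyte array. Lcn2, which binds bacterial iron carriers, had 75575 against at most 971 (7.92 ± 0.77, limma adjusted p = 0.0104). Ngp, a granule protein of precursors, had 65457 against at most 938, and Chil3, a chitinase-like protein of myeloid cells, 41535 against at most 443. Prtn3, a granule protease, had 10359 against at most 201 (5.42 ± 0.68, limma adjusted p = 0.0247). Slpi, a protease inhibitor that was on no list, had 29077 against at most 301 (6.67 ± 0.70, limma adjusted p = 0.0106).

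Not every neutrophil gene was high. Mmp9, a gelatinase, had 1697 in spleen inside a lymphocyte range of 585 to 3085. Itgam, the CD11b integrin chain, had 528 inside 204 to 1840, and Csf3r, the receptor for granulocyte colony-stimulating factor, had 1871 against at most 1370. These 3 genes were inside the lymphocyte range or under 2-fold above its highest array.

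The neutrophil promoters were searched for GAGGAA, a form of the motif of ETS factors such as PU.1, which act in myeloid cells. Those of Mpo and Ltf are shown because both encode granule proteins called by limma, and they hold the motif on opposite strands (in capitals).
Mpo, chr11:87793534-87793783, plus strand: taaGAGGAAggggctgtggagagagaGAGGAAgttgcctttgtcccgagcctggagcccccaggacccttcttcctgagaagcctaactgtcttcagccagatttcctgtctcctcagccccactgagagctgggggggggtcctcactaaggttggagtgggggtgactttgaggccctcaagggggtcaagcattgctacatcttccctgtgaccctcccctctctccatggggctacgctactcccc
Ltf, chr9:111019042-111019291, plus strand: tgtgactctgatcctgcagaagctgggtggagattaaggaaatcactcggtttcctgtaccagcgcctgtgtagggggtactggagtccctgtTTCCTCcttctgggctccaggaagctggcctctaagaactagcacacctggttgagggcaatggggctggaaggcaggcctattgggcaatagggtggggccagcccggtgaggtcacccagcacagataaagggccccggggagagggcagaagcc
Mpo has 2 matches, 247 and 224 bases before its start. Ltf has 1 match, on the opposite strand at 157 bases, written there as TTCCTC. The motif was in 15 of 22 neutrophil promoters (68.2%) and in 10 of the 15 that were above all 6 arrays, against 23.1% of all promoters.

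Macrophage genes had a median difference of 3.04, and 6 of 39 were called by limma. Lyz2, the lysozyme of myeloid cells, had 182783 in spleen against a lowest, median and highest of 82.4, 509 and 2631 (8.21 ± 0.82, limma adjusted p = 0.0104). Csf1r, the receptor for macrophage colony-stimulating factor, had 36398 against 52.2, 144 and 1482 (6.81 ± 0.91, limma adjusted p = 0.0294). Marco, a scavenger receptor of marginal zone macrophages, had 16167 against 82.1, 325 and 571 (5.29 ± 0.78, limma adjusted p = 0.0354). The highest lymphocyte values of Lyz2 and Csf1r were both on the array of B cells alone. Fcna, a ficolin that binds microbial sugars, had 26970 against at most 1196 (limma adjusted p = 0.0486). C1qc, a chain of the first complement component, had 4135 against at most 286 (limma adjusted p = 0.0479). Tgfbi, a matrix protein that was on no list, had 19349 against at most 224, a log2 difference of 6.38, and was called by limma. It had 2113 to 22578 on the BIIB arrays of other tissues, so its signal was not particular to spleen. On the 2 arrays of 500 RAW267 cells it had 47.5 and 17.6, so it is not counted here as a macrophage gene.

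Genes of the red pulp macrophage and of iron recycling lay outside the range more narrowly. Spic, the factor that specifies red pulp macrophages, had 12108 against at most 1424 in lymphocytes (limma adjusted p = 0.115). Slc40a1, the iron exporter ferroportin, had 19770 against at most 4716, and Hmox1, which breaks down heme, 5649 against at most 1531. Vcam1, an adhesion molecule of these macrophages and of stroma, had 17773 against at most 2286. Of the iron and heme list, 12 of 27 genes (44.4%) were above all 6 arrays and none below, with a median difference of 1.35. Hp, the plasma protein that binds free hemoglobin, was called by limma with 33549 against at most 741 (5.91 ± 0.79, adjusted p = 0.0294), and Lcn2 was the other call of that list. Siglec1, the sialoadhesin of marginal metallophilic macrophages, went the other way, with 54.1 in spleen and 175 to 3776 in lymphocytes. With the pseudocount added to both signals, it was under 2-fold below the lowest array. Adgre1, the F4/80 antigen, had 3641 against at most 2429, under 2-fold above the highest array.

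**Figure D2:**
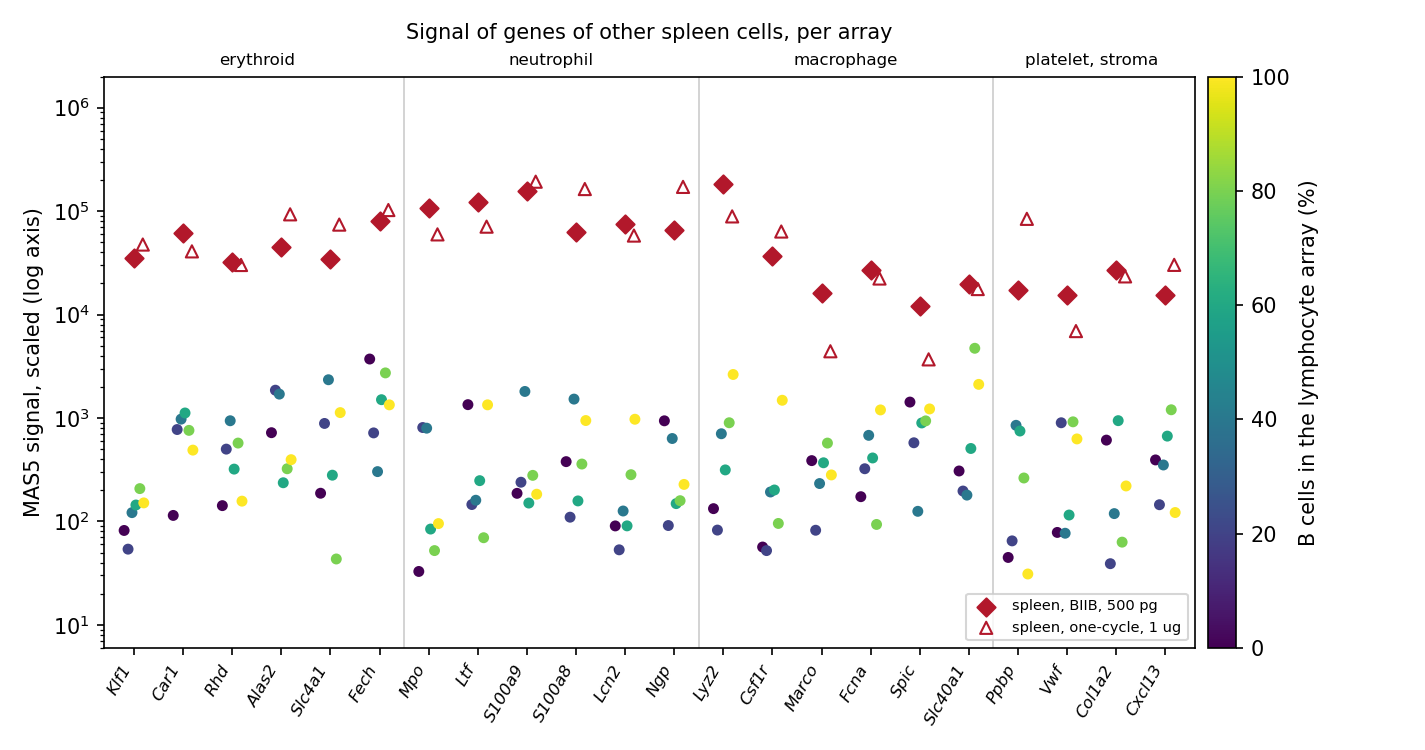
Scaled MAS5 signal (log axis) of 22 genes of erythroid, neutrophil, macrophage, platelet and stromal lists. Filled diamonds are the 1 spleen array of 500 pg, open triangles the 1 one-cycle array of 1 ug of spleen RNA, and circles the 6 lymphocyte arrays coloured by their share of B cells; each diamond lies above all 6 circles of its gene.

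Platelet genes were above all 6 arrays for 8 of 18 (44.4%), with a median difference of 2.35. Ppbp, a platelet chemokine precursor, had 17198 against at most 849, and Pf4, platelet factor 4, 17528 against at most 2827. Vwf, which tethers platelets and is made by megakaryocytes and endothelium, had 15409 against at most 917. Cavin2, a caveolar protein, was the 1 limma call, with 16111 against at most 899 (5.67 ± 0.94, adjusted p = 0.0481). Itga2b, the platelet integrin chain, had 7126 against at most 3977, under 2-fold. These members were high in spleen with an unequal margin.

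Stromal genes were mixed, with 19 of 58 (32.8%) above all 6 arrays, 3 below and a median of 1.26. Sparc, a matrix protein of fibroblasts, was the 1 limma call, with 30944 in spleen against 38.5, 271 and 1071 (6.39 ± 1.07, adjusted p = 0.0486). Col1a2, a type I collagen chain, had 27202 against at most 942 (limma adjusted p = 0.057). Cxcl13, the chemokine by which follicular stroma attracts B cells, had 15345 against at most 1200, and Tcf21, a factor of spleen mesenchyme, 3596 against at most 840. Collagens, a follicular chemokine and a mesenchymal factor were thus among the higher members. Serpinf1, an anti-angiogenic secreted protein, was lower, with 29.8 in spleen against 675 to 2560, and Lamb1, a laminin chain, had 68.4 against 682 to 2251. Of the endothelial list, 7 of 31 (22.6%) were above and 2 below, with a median of 0.36. That median was 0.54 without the array of T cells alone, 0.54 without that of 400 B cells and 0.63 without that of B cells alone. Aqp1, a water channel of both endothelium and red cells, was called by limma with 25982 against at most 420 (6.23 ± 0.74, adjusted p = 0.0186). Stab2, the scavenger receptor of sinus endothelium, had 4825 against at most 2134, while Cdh5, the endothelial cadherin, had 282 inside 97.7 to 817.

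Genes of DNA replication and mitosis were above all 6 arrays for 34 of 41 (82.9%), none was below, and the median difference was 3.29. Mki67, the Ki-67 antigen of cycling cells, had 137004 in spleen against a lowest, median and highest of 1614, 4198 and 13042 (limma adjusted p = 0.0608). Ccna2, cyclin A, had 29910 against 955, 1275 and 2056 (4.39 ± 0.70, limma adjusted p = 0.0443). Plk1, a mitotic kinase, had 7541 against 112, 260 and 400 (4.41 ± 0.70, limma adjusted p = 0.0435). These were the 2 limma calls of the list. Pcna, the replication clamp, had the narrower gap, with 82925 against at most 23069. Both arrays of 500 RAW267 cells, which the labels describe as cultured and flow sorted, had Mki67 at 119096 and 146528, in the range of the spleen array.

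Among antibody genes, limma called Igha, Jchain and some probe sets of Ighm. Igha, the constant region of IgA heavy chains, had 171415 in spleen against 1311, 2416 and 4004 in lymphocytes (6.08 ± 0.71, limma adjusted p = 0.0168). Jchain, which joins IgA and IgM into polymers in plasma cells, had 17588 against 33.5, 503 and 1068 (5.17 ± 0.81, limma adjusted p = 0.0435). Ighm, the constant region of IgM, had 423529 against 21272 with T cells alone and 125562 with B cells alone. That is the brightest of 11 Ighm probe sets and was not called (limma adjusted p = 0.0845). Of the 11, 7 were at least 2-fold above all 6 arrays, none was below, and limma called 3, with log2 differences of 5.35, 6.70 and 5.22 (adjusted p = 0.0406, 0.0489 and 0.0384). The brightest Ighm probe set also had 39440 and 50329 on the RAW267 arrays, so its signal was not confined to B cells. Of the plasma cell list, 5 of 14 (35.7%) were above all 6 arrays and Prdm1, a repressor that drives plasma cell formation, was below, with 549 against 1248 to 2947. Sdc1, the plasma cell surface proteoglycan, had 871 inside 210 to 2161.

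Surface and signalling genes of lymphocytes mostly lay inside the range of the mixtures, which spans pure T to pure B cells, or under 2-fold outside it. The T cell list had a median difference of -1.63 and the B cell list of -0.58, beside -0.53 for all genes. The B cell median was -1.07 without the array of T cells alone and -0.36 without that of B cells alone. Ms4a1, the CD20 antigen, had 11151 in spleen against 1414 to 37337, between the arrays with 200 and 300 B cells. Cd22, an inhibitory B cell receptor, had 6488 against 713 to 35855. Cd8a, the coreceptor of cytotoxic T cells, had 3184 against 1214 to 29328. Cd4, the coreceptor of helper T cells, was below all 6 arrays with 223 against 1026 to 3356, although its lymphocyte signal was highest with B cells alone and so did not go with the share of T cells. Gata3, a T cell factor, had 51 against 293 to 2328. Limma called no gene of either list in either direction. Cd74, H2-Aa and the other 9 genes of the MHC class II list gave 0 of 11 outside the range by at least 2-fold. Their log2 differences ran from -3.43 for H2-Ea to 2.36 for Cd74.

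**Figure D3:**
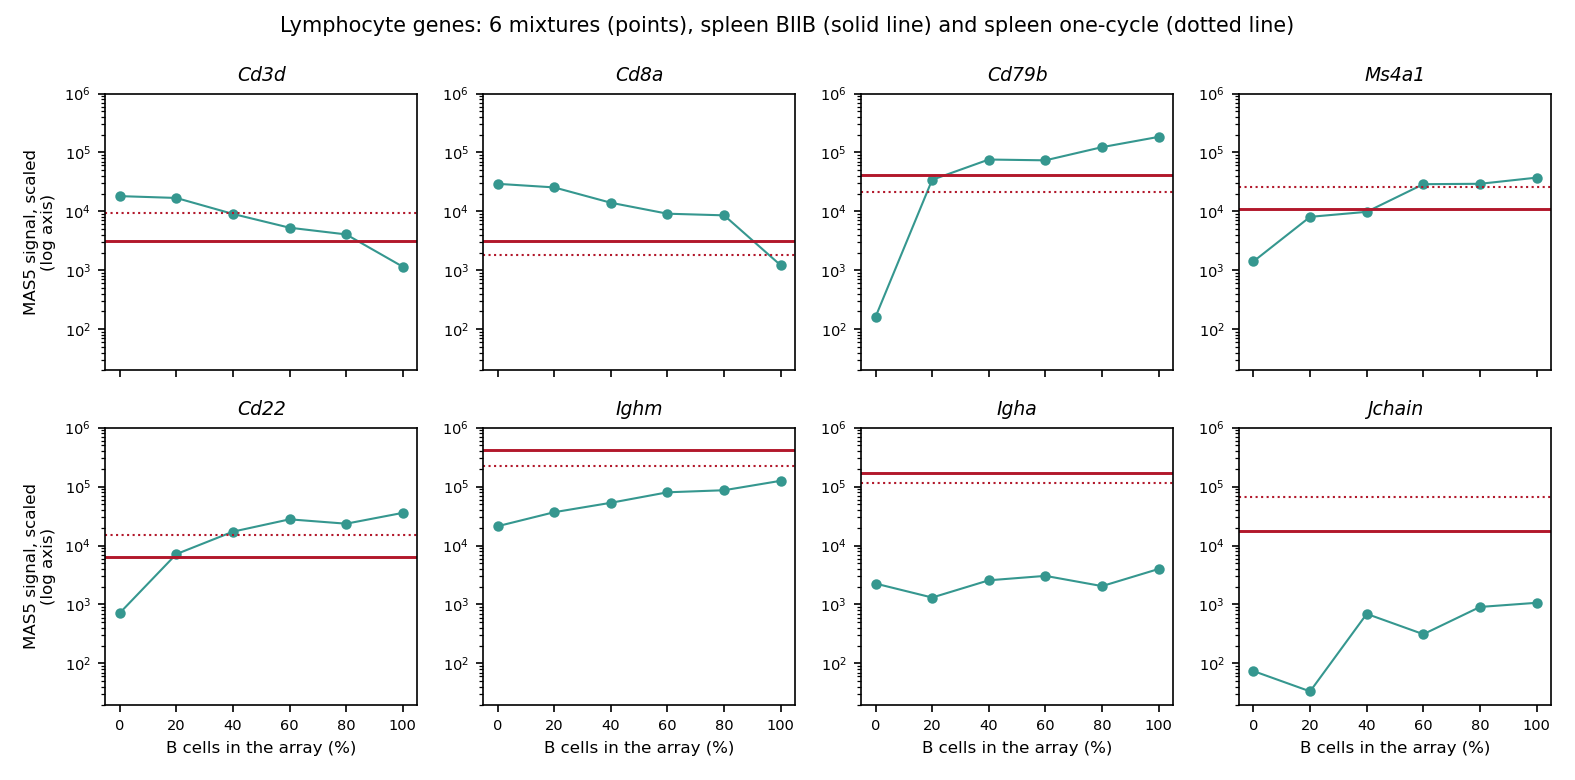
Scaled MAS5 signal (log axis) of 8 lymphocyte and antibody genes against the percentage of B cells in the 6 lymphocyte arrays (points), with the 500 pg spleen array (solid line) and the one-cycle spleen array (dotted line). The spleen lines cross the mixtures for Cd3d, Cd8a, Cd79b, Ms4a1 and Cd22 and lie above all 6 points for Ighm, Igha and Jchain.

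Interferon genes were above all 6 arrays for 13 of 38 (34.2%), with a median of 1.35 and no limma call. Rsad2, the antiviral protein viperin, had 107734 in spleen against 118, 1010 and 3864 (6.65 ± 1.34, limma adjusted p = 0.0696). Cxcl10, an interferon-induced chemokine, had 9359 against at most 2470, and Eif2ak2, the antiviral kinase PKR, was below, with 826 against 2896 to 7543. Complement genes were above for 7 of 22 (31.8%), led by C1s1, a protease of the first component, with 10291 against at most 357 (5.11 ± 0.74, limma adjusted p = 0.0346). The NK cell list had 1 of 20 above and 2 below, and the monocyte and dendritic cell list 2 of 21 above and 1 below. These last lists were near the background.

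Pancreatic enzyme genes were as far above the lymphocytes as the resident blood cell genes. Of the pancreas list, 19 of 23 (82.6%) were above all 6 arrays, limma called 9, and the median difference was 5.61. Ctrb1, the chymotrypsinogen of acinar cells, had 78040 in spleen against 44.9, 110 and 329 (8.33 ± 0.74, limma adjusted p = 0.00734). Cpa1, a carboxypeptidase, had 64190 against at most 1384 (6.61 ± 0.76, limma adjusted p = 0.0168). Ins2, the islet hormone insulin, had 343 inside 175 to 434, so the acinar but not the insulin transcript was high. The summed signal of the list was 613245 on the spleen array and 655506 on the one-cycle array of the spleen RNA. It was 11079 to 20010 on the lymphocyte arrays, 909853 on the BIIB array labelled brain, 167215 on the embryo array and 4311 to 32948 on the other 5 tissue arrays. The array labelled brain also had the highest summed signal of the complement list, 669806 against 23119 to 133398 on the other tissue arrays. Whether it holds brain RNA was not tested, so its pancreas sum should not be read as a trait of brain. Adipoq, the marker hormone of fat, had 281 inside 33.1 to 895. The part of pancreatic RNA in the other differences, including that of Clu, was not tested. Clu, the secreted chaperone clusterin, was the named gene farthest above the lymphocytes, with 108875 against 38.8, 135 and 363 (8.67 ± 0.76, limma adjusted p = 0.00734). It had 32046 to 305797 on the other tissue arrays.

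Of the genes lower in spleen, 17 passed both limma and the range, and none of the 15 named belonged to a list. Whether lower genes form groups outside these lists was not tested. Bzw2, a regulator of translation start, had 645 in spleen against 46454, 59440 and 89649 in lymphocytes (-6.32 ± 0.65, limma adjusted p = 0.0104). Erbin, a scaffold protein that binds a growth factor receptor, had 18.1 against 4036, 7140 and 12200 (-5.59 ± 0.78, limma adjusted p = 0.0308). Ntmt1, a methyltransferase of protein amino termini, had 34.2 against 3473, 5634 and 6632 (-5.04 ± 0.70, limma adjusted p = 0.0308). Bzw2 was the bright member, and the other 2 had lymphocyte signals far below it. Tnp2, a sperm chromatin protein, had 81.3 against 4419 to 8425, and Gh, growth hormone of the pituitary, 15.9 against 2883 to 9005. Hbb-bh1, an embryonic globin, had 208 against 5048 to 8267, and Lce3c, a skin barrier protein, 27.6 against 2847 to 6980. These 4 genes are known from other tissues, and on the arrays of 500 lymphocytes their signals were above the highest of the other 7 tissue arrays (1032 for Tnp2, 1267 for Gh, 4892 for Hbb-bh1 and 1089 for Lce3c). On the arrays of 100 lymphocytes this held for Gh alone, whose lowest signal was 2285, while the lowest was 192 for Tnp2, 359 for Hbb-bh1 and 213 for Lce3c. Against those arrays limma gave an adjusted p of 0.632 for Tnp2, 0.361 for Hbb-bh1 and 0.326 for Lce3c, and kept the call of Gh (adjusted p = 0.0163). Tmem42, Plekha4, Gm31556, Rabl6, Rpp40, Celsr2 and Gm9222 were the remaining members besides Xist, with differences from -5.70 for Rabl6 to -3.94 for Rpp40. Other probe sets of the same gene did not always go along. Of those past the filter, 3 of 3 were at least 2-fold below all 6 arrays for Gh, and 2 of 3 for Erbin and Xist. It was 1 of 2 for Bzw2, Ntmt1, Hbb-bh1 and Celsr2, and 1 of 3 for Plekha4 and Rabl6. The values given are those of the probe set with the highest mean of the group means. The limma calls of these 15 were the less stable ones: 1 was kept under quantile normalization and 1 or 2 when any 1 lymphocyte array was left out, against 14 and 7 to 13 of the 15 named genes that were higher. No named gene changed direction under any alternative run.

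Xist, the RNA that coats the inactive X chromosome of female cells, had 773 in spleen against 18338, 25419 and 44976 (-4.95 ± 0.67, limma adjusted p = 0.0294). Eif2s3y, a gene of the Y chromosome looked up after the Xist value was seen, had 4166 against at most 1141 (limma adjusted p = 0.143). Sry, the testis-determining gene of the Y chromosome, was looked up too and lay in the opposite direction to Eif2s3y: 1 of its 2 probe sets had 9.8 in spleen against 4428 to 13815 (-5.50 ± 0.79, limma adjusted p = 0.034), and the other had 413 against 824 to 9150. Kdm5d and Uty, also of the Y chromosome, had no probe set past the filter and none outside the range by 2-fold, so they give no direction. Eif2s3y and Sry thus did not share a direction. H2-D1, a class I histocompatibility gene that varies between strains, was also looked up afterwards, and its 9 probe sets disagreed. For 3 of them spleen had 11.7, 276 and 696 against at least 52288 in lymphocytes, and none of the other 6 was outside the range by 2-fold. H2-K1, another class I gene looked up, had 0 of 4 probe sets outside the range. Sex and strain are not in the labels, and their part in these values was not tested.

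**Figure D4:**
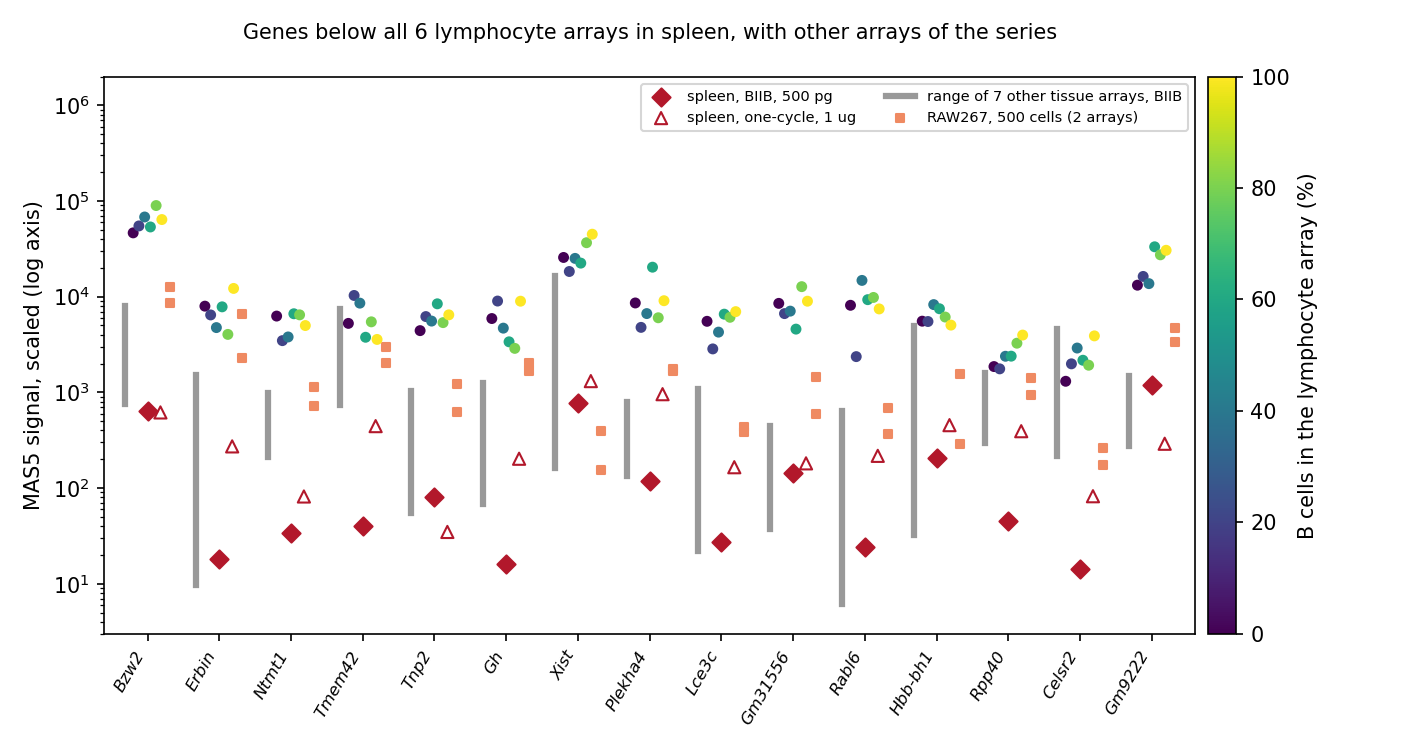
Scaled MAS5 signal (log axis) of the 15 named genes lower in spleen. Diamonds and triangles are the 2 spleen arrays, circles the 6 lymphocyte arrays, squares the 2 arrays of 500 RAW267 cells and grey bars the range of 7 other tissue arrays; for each gene all 6 circles lie above both spleen arrays.

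The probe sets below all 6 lymphocyte arrays were chosen as low in spleen and mostly passed the filter through the lymphocytes, so their levels elsewhere are given as a description only. Their median signal was 223 on the spleen array, 396 on the one-cycle spleen array, 357 on the other tissues and 354 on 4 arrays of 500 pg of universal mouse RNA, a pool of many sources, against 2363 in the lymphocytes. On the RAW267 arrays, which like the lymphocytes started from 500 whole cells, it was 631. The spread between lymphocyte arrays around the line of B cell share was a median SD of 0.89 (log2), and that of the 4 universal RNA arrays 0.40.

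Immediate early genes, which respond within minutes to handling of cells, lay near the background in both directions. Only Rgs2 of 36 genes (2.78%) was above all 6 arrays, and Ier5 and Klf6 (5.56%) were below, beside 5.22% and 8.31% of all genes. The list median was -0.23. It turned to 0.37 under quantile normalization and was also positive against the arrays of 100 cells. The part of handling was not tested. Ier5 had 1410 in spleen against 4700 to 13545, and Klf6, a zinc finger factor, 857 against 2583 to 4331. Fos, the classic member, had 631 inside 91.2 to 3043, and on the RAW267 arrays it had 78939 and 83807. Of 20 heat shock genes, Hspd1 and 1 other (10.0%) were above and Chordc1 (5.00%) was below. Actb, a cytoskeletal reference gene, had 1 probe set above and 1 below all 6 arrays, so no direction is given for it.

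The spleen differences were set against the second array of the spleen RNA, made from 1 ug by the one-cycle protocol and compared relative to universal RNA. Of the 946 probe sets above, 941 had the same direction there and 696 (73.6%) were again at least 2-fold above all 6. Of the 1517 below, 1511 had the same direction and 1010 (66.6%) were again at least 2-fold below. Over all 15132 probe sets past the filter, 965 were above and 1797 below all 6 by this measure. The 6 lymphocyte arrays were the same ones against which the probe sets had been chosen, so a shared direction was largely fixed in advance. The values describe only how far the 2 spleen arrays go together. Klf1 had 47473 on that array, Mpo 59522, Lyz2 88832, Igha 114299 and Ctrb1 109480, each far above the lymphocyte arrays. Against the 12 arrays of 100 lymphocytes in place of those of 500, 470 (49.7%) of the probe sets above and 325 (21.4%) of those below stayed outside the range.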

How the data were processed

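The authors deposited 1 linear MAS5 intensity per probe set and array, per the labels. The MAS5 version is not given in the sources used here, and no detection calls, scanner files or array dates were used. Of 22690 probe sets, 64 controls were dropped. Each array was rescaled to a common 2% trimmed mean, and log2(signal + 125) was used, so fold changes of dim probe sets are understated. The filter was a mean of the 2 group means of at least 500. limma (3.58.1, R 4.3.3, lmFit and eBayes) compared spleen with the mean of the 6 lymphocyte arrays, with the centred B cell share as a covariate and 4 residual degrees of freedom. A call needed a Benjamini-Hochberg adjusted p under 0.05 over all probe sets past the filter and 2-fold. The range rule needs spleen 2-fold outside all 6 lymphocyte arrays. The number of arrays limits the precision.

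Symbols came from the platform annotation: 20393 probe sets had 1 symbol, 691 several, and the rest none here. A gene was represented by its probe set with the highest mean of the group means. Named genes are members of the 25 lists and, among probe sets with 1 symbol passing both rules, the 15 farthest from the nearest lymphocyte array in each direction. Members and lists were chosen with earlier results of these data known. Promoters are RefSeq's, GRCm38.p6. Alternatives were quantile normalization, pseudocounts of 25 and 500, no filter or one of 1000, leaving out each lymphocyte array, the arrays of 100 cells, all 18 lymphocyte arrays, the one-cycle spleen array, no covariate, universal RNA arrays in the fit, and 4-fold.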

Additional observations from a re-analysis of the deposited data

Results flagged for a closer look

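Among the 6 lymphocyte arrays, 1 array stood apart from the other 5 for 8 of 106 genes checked among those named in the text, by Dixon's test of the gap over the range, which by chance marks about 1 in 20 groups. S100a9 had 1804 on the array of 300 T and 200 B cells and at most 279 on the others. Csf1r had 1482 on the array of B cells alone and at most 201 on the others. Cd79b had 161 and H2-Aa 830 on the array of T cells alone, the mixture without B cells. Pf4 had 380 and Itgam 204 on the array of 400 T and 100 B cells. On the same array Rpl41 had 139750, and 74636 to 93853 on the others. Siglec1 had 175 on the array of 300 T and 200 B cells. For S100a9, Csf1r and Pf4 the spleen array was above all 6 arrays with or without the array that stood apart.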

How the results depend on the processing

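The limma counts, 76 higher and 45 lower in spleen, moved most. They were 37 and 6 under quantile normalization, 38 and 16 with no filter, 156 and 145 with a filter of 1000, and 221 and 70 with a pseudocount of 500. A pseudocount of 25 gave 160 lower, the arrays of 100 cells 21 lower, and no covariate 78 lower. All 18 lymphocyte arrays gave 157 and 80, the one-cycle spleen array 126 and 111, and the universal RNA arrays in the fit 576 and 848. Leaving out 1 lymphocyte array, any of the 6, gave 16 to 34 higher and 5 to 8 lower. The range counts, 946 above and 1517 below, were 544 and 489 against the arrays of 100 cells, 470 and 336 against all 18 and 374 and 446 at 4-fold. Those below were 836 under quantile normalization, 817 with a pseudocount of 500 and 950 with a filter of 1000. Leaving out 1 array gave 1025 to 1058 above and 1701 to 1879 below. Fewer arrays to clear widen the range counts by construction, and more arrays narrow them; the cause of the other shifts was not tested. No paired analysis was possible because there is 1 spleen array, so the groups compared share fewer than 2 replicate numbers.

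Erythroid, neutrophil, macrophage, pancreas, platelet, and DNA replication lists kept a positive median under all alternatives run, the lowest being 1.69 for platelets. Medians of the NK cell, adipose and chemokine lists turned positive with a filter of 1000 (0.80, 1.5 and 2.07). The complement median was -0.46 with the one-cycle spleen array.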

Other observations

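Of 97 genes of oxidative phosphorylation, 9 (9.28%) were at least 2-fold above all 6 lymphocyte arrays and 2 (2.06%) below. The shares of all genes were 5.22% and 8.31%. The median difference of the list was 0.70, against -0.53 for all genes, and 0.65 to 0.86 over the alternatives run. The median log2 level of the list was 13.01 in spleen and 12.16 to 12.53 on the lymphocyte arrays, so spleen was above each of them by under 2-fold. Cox7a1, a muscle form of a cytochrome oxidase subunit, was below, with 9.1 in spleen against 1352 to 2538 (limma adjusted p = 0.052). Of 48 ribosomal protein genes, 3 (6.25%) were above and 2 (4.17%) below, with a median of 0.15. Rpl41 had 1 probe set above and 2 below all 6 arrays, so no direction is given for it.

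Mast cell, basophil and eosinophil genes were 2 (14.3%) above and 2 (14.3%) below of 14, beside 5.22% and 8.31% of all genes. The median of this list was -0.18. It turned positive under quantile normalization, with a filter of 1000 and without the array of 300 T and 200 B cells. Prg2, the major basic protein of eosinophils, had 4536 in spleen against at most 2011, and Kit, the stem cell factor receptor, had 6.7 against 595 to 1660. Of 15 adipose genes, 1 (6.67%) was above all 6 arrays and 1 (6.67%), Ucp1, was below, with a list median of -0.51. The higher one was Pparg, a factor of fat cells and red pulp macrophages, with 6741 against at most 517. Pparg had 676 on the one-cycle spleen array. Of 32 chemokine genes, 6 (18.75%) were above and 2 (6.25%) below. Cxcl12, which holds precursors in their niche, had 4789 against at most 1657.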
